A study of Arabidopsis thaliana with 48 samples.

Results

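The data described here compared gene expression in excised Arabidopsis leaves at 23.5 h with that at 20 h after a dark and cold pre-treatment. The 6 libraries of these time points, 3 at each, were chosen by their labels from the 48 libraries of a series that sampled 16 time points from 19.5 to 27 h. Both groups were the 4th rosette leaves of 21-day-old Arabidopsis thaliana plants, cut at the petiole and floated on 3 mM MES at pH 5.7. Before sampling, both had spent 24 h without light at 16 °C, followed by constant light near 20 µmol m-2 s-1 with the temperature raised to 22 °C, so the groups differed by 3.5 h in the light and shared the excision, the dark and the cold. The labels and the sampling description give no genotype or transgene for these leaves. They also do not say whether a library was made from 1 leaf or a pool, or whether the 3 replicates came from separate plants or plates, so the p-values rest on a spread between samples that may be only technical.

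An ultradian rhythm is one with a period shorter than a day, and the study followed one of a few hours in the promoter activity of excised Arabidopsis leaves. Excised leaves can also form new roots at the cut, a process called de novo root regeneration (DNRR), in which auxin made after wounding moves into the vasculature. If the period of a gene lay near 3.5 h, these time points would ask which genes differ at a nearly matched phase. Genes of a shorter or longer period would be out of phase, and whether the phase was matched was not tested. The xylem of the leaf veins matters below. Its water-conducting cells, the tracheary elements, lay down a cellulose and xylan secondary wall, fill it with lignin and then digest their own contents.

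The 20 h libraries held 25978246 to 28313320 counted reads and the 23.5 h libraries 34879122 to 36345488, so every 23.5 h library was the deeper one. Of 34262 genes in the table, the 17568 with a mean of at least 1 CPM (read counts scaled to a common library size, here with TMM factors, which correct for abundant genes that take up many reads) were tested. Plastid genes made up 0.215%, 0.295% and 0.400% of the counts at 20 h, against 0.193%, 0.155% and 0.200% at 23.5 h. On gene-centred log2 values of the 11460 genes with at least 10 CPM, the 3 libraries of 20 h correlated with each other at 0.29 to 0.43 and those of 23.5 h at 0.47 to 0.65, while the 9 pairs across the time points ran from -0.02 to 0.79. The library closest to 20 h replicate 2 was 23.5 h replicate 3 (0.79), and the library closest to 20 h replicate 1 was 23.5 h replicate 1 (0.64). The third library of 20 h was closest to a 21.5 h library (0.63) and correlated at no more than 0.34 with any library of 23.5 h. Outside this comparison, 22.5 h replicate 1 correlated at -0.61 and -0.34 with the other libraries of 22.5 h and at 0.82 with a 21 h library, and 24 h replicate 3 at -0.10 and -0.06 with its own group and at 0.80 with a 25.5 h library. Both enter the shared estimate of the spread.

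Few genes differed between 20 h and 23.5 h. In edgeR's quasi-likelihood test over all 48 libraries, 36 of 17568 genes (0.205%) passed an adjusted p of 0.05, 15 of them higher at 23.5 h (0.0854%) and 21 lower (0.12%). At an unadjusted p of 0.05, 1672 genes passed (9.52%), 809 higher (4.6%) and 863 lower (4.91%). All 36 genes had non-overlapping libraries, against 7.68% of all tested genes higher and 7.82% lower. It follows that they also moved in the same direction in each same-numbered pair. Of the other pairs of time points 3.5 h apart, 6 gave 2303 to 4742 genes (13.1% to 27.0%), and the pairs 25.5 against 22 h and 26.5 against 23 h gave 9 (0.0512%) and 3 (0.0171%). Against 20 h itself, which is shared by the following counts, 36 genes were called at 23.5 h, 1624 (9.24%) at 23 h and 2405 (13.7%) at 24 h. The count for 23.5 h thus lay below that of either neighbouring time point, and only 20.5 h gave fewer of the 15 time points compared with 20 h, with 2 genes (0.0114%). The counts depended on the libraries that set the spread. Without 22.5 h replicate 1 and 24 h replicate 3, 143 genes were called at 23.5 h and 667 at 20.5 h, so that the order of these times turned. The count at 23.5 h was from 0 to 13 when any one of the 6 libraries was left out (13 without 20 h replicate 1, 2 without 23.5 h replicate 2, 1 without 23.5 h replicate 3 and 0 without each of the others).

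**Figure D1:**
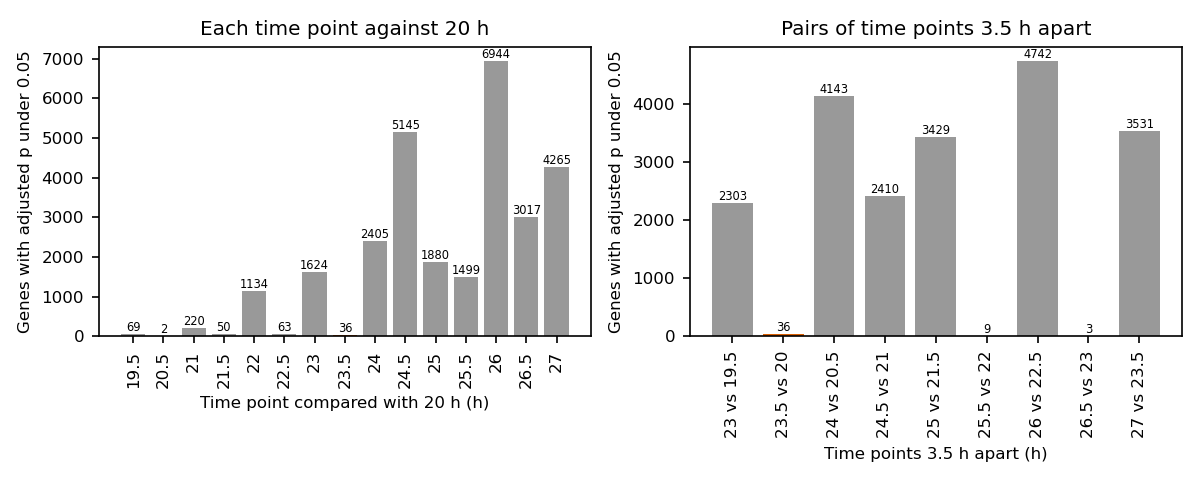
Number of genes with an adjusted p under 0.05 for each of the 15 other time points against 20 h (left, x axis in h) and for the 9 pairs of time points 3.5 h apart (right); 23.5 h against 20 h is the orange bar with 36 genes. The bars beside it at 23 h and 24 h reach 1624 and 2405 genes on the left, and the right panel ranges from 3 to 4742 genes.

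The genes that fell included a group of the xylem. Of 13 tested members of a list of xylem and cambium markers, 3 were called lower and 0 higher, against 0.12% of all genes lower. Their libraries did not overlap and were lower at 23.5 h in 8 of 13 members, against 7.82% of all tested genes. The median log2 change of the list was -0.48 (all tested genes 0.00), between -0.75 (without 23.5 h replicate 2) and -0.40 with any one of the 6 libraries left out and -0.31 when counts were scaled by library totals. With any one of these libraries left out, 0 of the 3 calls were made. Each of the 3 changes stayed negative, a sign that non-overlapping libraries leave little room to turn. Since whole leaves were used, fewer cells of a type and less RNA per cell cannot be told apart.

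XCP1 and XCP2 are papain-like cysteine proteases that break down the contents of tracheary elements. XCP2 was at 36.9, 35.6 and 39.3 CPM at 20 h and at 17.7, 16.4 and 15.1 CPM at 23.5 h. Every library of 20 h held about double the level of any library of 23.5 h. The fitted log2 change was -1.18 ± 0.25 (SE, edgeR adjusted p = 0.0285), a fitted fold of 2.27. XCP1 was at 19.6, 20.1 and 22.2 CPM at 20 h and at 10.8, 8.96 and 7.75 CPM at 23.5 h (log2 change -1.17 ± 0.25 SE, edgeR adjusted p = 0.0362). As for XCP2, the same-numbered libraries kept apart in every pair, and the lowest 20 h library lay well above the highest of 23.5 h.

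XCP1 lies at chr4:16810482-16812077 on the plus strand of TAIR10.1. The tracheary element-regulating element, a motif known from promoters of tracheary element genes (CTT, any base, AAAGC, any base, A), was found on either strand of the 250 bases before the annotated start in 71 of 17463 tested genes (0.407%). It was present before 2 of the 20 genes called lower that had such a sequence, and before none of the 15 called higher. These were XCP1 and XSP1, the latter a xylem serine peptidase. Their stretches are shown because they hold this motif (in capitals), each 5′ to 3′ on the strand of the gene, from the RefSeq genome of TAIR10.1. The motif was added after the list of called genes was seen, and a match is a description of letters only.
XCP1, chr4:16810387-16810437: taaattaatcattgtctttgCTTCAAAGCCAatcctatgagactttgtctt
XSP1, chr4:93494-93544: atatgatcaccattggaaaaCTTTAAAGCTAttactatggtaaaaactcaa
XSP1 itself was at 16.8, 16.3 and 16.7 CPM at 20 h and fell to 11.8, 10.2 and 10.5 CPM at 23.5 h (log2 change -0.62 ± 0.12 SE, edgeR adjusted p = 0.0221). Its 20 h libraries lay close together, and a fall of this size stood far outside their spread. XCP2 and the other genes called lower had no match in the same window.

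LAC17 and LAC11, laccases that couple lignin monomers in the wall, fell as well. LAC17 was at 11.2, 10.9 and 12.3 CPM at 20 h and at 4.69, 5.16 and 3.61 CPM at 23.5 h (log2 change -1.35 ± 0.30 SE, edgeR adjusted p = 0.0445). LAC11 was at 7.59, 8.24 and 9.03 CPM and then at 5.06, 3.43 and 3.35 CPM (log2 change -1.08 ± 0.24 SE, edgeR adjusted p = 0.0458). Both laccases were lower in each library of 23.5 h than in any of 20 h. LAC4, which RefSeq names IRX12, was at 16.9, 16.0 and 20.4 CPM and then at 10.7, 11.3 and 10.05 CPM, with a log2 change of -0.73 ± 0.20 (SE) that did not pass (edgeR adjusted p = 0.139). It passed in the fit without 22.5 h replicate 1 and 24 h replicate 3. AT5G51890, annotated as a peroxidase, of the enzyme class that also couples lignin monomers, was at 26.3, 27.1 and 27.5 CPM at 20 h and at 11.9, 10.8 and 6.20 CPM at 23.5 h (log2 change -1.498 ± 0.31 SE, edgeR adjusted p = 0.0234). TED6, a membrane protein of the developing secondary wall, was at 7.15, 7.31 and 7.105 CPM at 20 h and at 3.85, 2.65 and 2.74 CPM at 23.5 h (log2 change -1.23 ± 0.24 SE, edgeR adjusted p = 0.0208). PRR1, here pinoresinol reductase 1 of lignan synthesis and not a clock gene, was at 10.2, 11.1 and 15.0 CPM and then at 6.10, 6.56 and 4.95 CPM (log2 change -1.04 ± 0.22 SE, edgeR adjusted p = 0.0285).

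None of the remaining members of the xylem and cambium list was called. The peroxidase symbol PRX66 of this list matched no gene by name, so it is not among the 13 members counted. Its locus was not looked up, so the called peroxidase AT5G51890 above could be this member under its locus name. The cellulose synthases of the secondary wall, CESA4, IRX3 (CESA7) and IRX1 (CESA8), had log2 changes of -0.63, -0.68 and -0.44 with non-overlapping libraries and adjusted p of 0.246, 0.199 and 0.510 (edgeR), in that order. IRX3, for example, was at 13.3, 12.5 and 13.6 CPM at 20 h and at 9.26, 8.61 and 6.70 CPM at 23.5 h. IRX9, of xylan synthesis, had a log2 change of -0.48 with overlapping libraries. ACL5, a thermospermine synthase of xylem development, and BHLH32 (TMO5), a factor of vascular cell divisions, had changes of -0.47 and -0.26, the latter with non-overlapping libraries. PXY, the receptor kinase that maintains the cambium, was at 28.0 to 30.4 CPM at 20 h and at 25.4 to 29.8 CPM at 23.5 h (log2 change -0.12, 95% interval -0.51 to 0.28). WOX4, a transcription factor downstream of PXY, had a log2 change of 0.09 (interval -0.50 to 0.68), and HB-8, an HD-ZIP III factor of the procambium, one of -0.08 (interval -0.42 to 0.26).

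**Figure D2:**
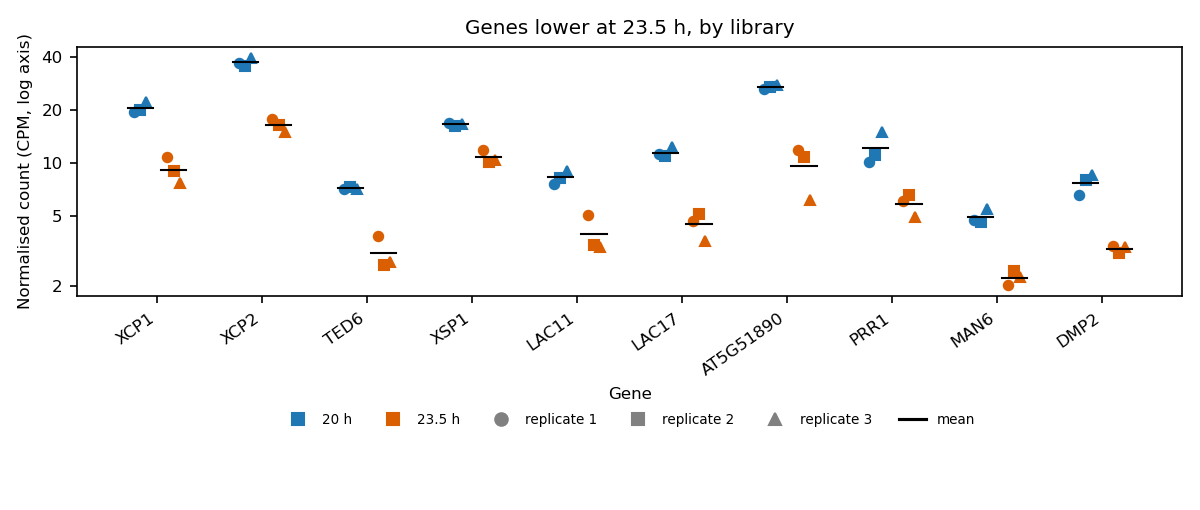
CPM (log axis) of 10 genes called lower at 23.5 h, by gene; blue points are the 3 libraries of 20 h, orange points those of 23.5 h, marker shapes the replicate number and black bars the means. In every gene the 3 orange points lie below the 3 blue points, as for XCP2 at 36.9, 35.6 and 39.3 CPM against 17.7, 16.4 and 15.1 CPM.

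In the time course the drop of XCP1 and XCP2 lay between 21.5 h and 22 h. XCP1 had a mean of 10.3 CPM at 19.5 h and of 20.6, 16.8, 16.3 and 20.6 CPM over the 4 time points from 20 to 21.5 h. It was then at 8.08 CPM at 22 h, and at 6.36 and 9.18 CPM over 23 and 23.5 h. At 22.5 h the mean of XCP1 was 11.7 CPM, where replicate 1, which stood apart above, was at 19.2 CPM and the other libraries at 6.99 and 8.79 CPM. XCP2 ran likewise, from 19.8 CPM at 19.5 h to 37.3, 34.2, 34.4 and 40.2 CPM at 20 to 21.5 h and to 14.9 CPM at 22 h. Both genes were thus high at the 4 time points from 20 to 21.5 h only, and neither returned to that level up to 27 h, where XCP1 was at 8.32 and XCP2 at 15.4 CPM. Measured against the same 20 h libraries (6.45% of all genes called at 22 h), the log2 change at 22 h was -1.36 ± 0.25 (SE) for XCP1, -1.33 ± 0.25 for XCP2, -1.39 ± 0.30 for LAC17 and -1.16 ± 0.24 for TED6. From 23.5 h to 27 h, another step of 3.5 h, the log2 changes were -0.15 for XCP1, -0.09 for XCP2, -0.19 for LAC17 and 0.39 for TED6, and none of the 4 was called (20.1% of all genes were).

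Other falls were of genes outside the xylem and cambium list, and the tissue of these genes was not tested. The largest among the called genes was that of the plastid locus ATCG01180, at 74.7, 88.1 and 134 CPM at 20 h and 26.6, 19.6 and 26.7 CPM at 23.5 h (log2 change -2.03 ± 0.44 SE, edgeR adjusted p = 0.0389). The kind of RNA made from this locus was not looked up. It was also not checked whether its reads could be shared with another plastid locus, so its counts may not reflect expression of a single gene. Over all 73 plastid genes, 1 was called (0.205% of all genes), and with non-overlapping libraries 24 were lower (7.82% of all genes) and 5 higher (7.68% of all genes). The median log2 change was -0.44, but -0.18 without 20 h replicate 3 and -0.27 without 23.5 h replicate 2. The share of plastid counts, smaller in each 23.5 h library than in any 20 h library, sums the counts of these same genes. It therefore moves with their values by construction and is not a separate measure. The cause of the lower plastid counts was not tested. AT1G04800, annotated as a glycine-rich protein, fell from 24.7, 18.4 and 17.3 CPM to 8.89, 8.45 and 5.85 CPM (log2 change -1.37 ± 0.30 SE, edgeR adjusted p = 0.0362). AT5G07080, of the HXXXD acyltransferase family, was the steepest fall of a nuclear gene among those called, from 2.89, 3.26 and 4.17 CPM to 1.47, 0.81 and 1.22 CPM (log2 change -1.58 ± 0.27 SE). MAN6, an endo-beta-mannanase, and DMP2, a DUF679 membrane protein, had log2 changes of -1.14 and -1.24. These genes and AT1G04800 had the same course as XCP2 in that their means peaked between 20.5 h and 21.5 h.

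Other called genes had smaller falls, and a small change passes the threshold only with a small SE. These changes also shrank under some alternative settings. At the smallest, the log2 change was -0.18 for TPI, -0.22 for U2B'', -0.29 for TIC21 and -0.30 for AT1G42960. These alternatives include library totals as the scale, where the median of all genes moved to 0.15. In the fits that left out a library or a replicate number, the smallest were -0.29, -0.33, -0.35 and -0.41, in that order. Of 20 alternatives, TPI was called in 5, U2B'' in 6, TIC21 in 7 and AT1G42960 in 11. AT1G42960, annotated only as localized to an inner membrane, had the lowest adjusted p of all tested genes (0.0092, edgeR) with a log2 change of only -0.45 ± 0.07 (SE). It was at 104, 99.8 and 99.0 CPM at 20 h and at 74.2, 77.6 and 69.2 CPM at 23.5 h, a gap wider than the range within either group. TIC21, of the inner envelope membrane of the chloroplast, went from 58.6, 56.0 and 65.9 CPM to 44.3, 41.3 and 47.4 CPM (log2 change -0.44 ± 0.09 SE). TPI, a triose phosphate isomerase of glycolysis, was at 485, 461 and 511 CPM at 20 h and at 372, 377 and 408 CPM at 23.5 h (log2 change -0.33 ± 0.08 SE, edgeR adjusted p = 0.0477). U2B'', a protein of the U2 spliceosome particle, had a log2 change of -0.37, and AT3G10130 (of the SOUL heme-binding family), AT1G62850, AT1G29040 and AT4G06599 had changes of -0.57, -0.59, -0.41 and -0.40.

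Of the 15 genes that rose, 6 are annotated as non-coding RNAs, and none of the 20 nuclear genes that fell is. Of all tested genes with a place on a nuclear chromosome, 1.36% are not protein-coding. A pair of them makes trans-acting small RNAs. The transcripts TAS1C and TAS2 are cut at a site complementary to the microRNA miR173, and the fragments are copied and diced into small RNAs that act on other transcripts. TAS1C lies at chr2:16537288-16538277 and TAS2 at chr2:16539384-16540417, both on the minus strand of TAIR10.1. The mature miR173 (bases 2 to 8 in capitals) and a 22-base window of each called transcript are shown 5′ to 3′. They come from the RefSeq annotation and genome of TAIR10.1. Each window is the one with the fewest differences from the exact complement of miR173 (2 in each, in lower case). The windows are shown because they are what the transcripts share.
miR173, chr3:8236161-8236182: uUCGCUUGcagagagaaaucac
TAS1C, chr2:16537890-16537911: GTGATTTtTCTCTaCAAGCGAA
TAS2, chr2:16539991-16540012: GTGATTTtTCTCTcCAAGCGAA
TAS1C was at 2.75, 3.86 and 2.69 CPM at 20 h and at 5.696, 6.34 and 7.22 CPM at 23.5 h (log2 change 1.06 ± 0.22 SE, edgeR adjusted p = 0.0274). TAS2 was at 6.53, 6.78 and 5.34 CPM and then at 9.69, 10.8 and 10.5 CPM (log2 change 0.73 ± 0.16 SE, edgeR adjusted p = 0.0442). Each library of 23.5 h was higher than every library of 20 h in both. The microRNA itself was not measured by these libraries. The paralogs TAS1A and TAS1B hold a like window with 2 and 3 differences from the exact complement. Both were also higher in each library of 23.5 h. TAS1A was at 4.17, 3.19 and 2.73 CPM and then 5.41, 5.40 and 5.53 CPM. TAS1B was at 2.89, 2.55 and 1.93 CPM and then 3.80, 3.67 and 3.47 CPM. Neither was called (edgeR adjusted p = 0.185 and 0.496). The TAS1 copies share sequence, and reads could be split between them in counting.

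The rise with the highest counts was GASA1, a gibberellin-responsive small secreted protein linked to cell elongation. GASA1 was at 315, 237 and 185 CPM at 20 h and at 608, 570 and 556 CPM at 23.5 h, a mean of 578 ± 27.0 (SD, n = 3) against 246 ± 65.6 at 20 h (fitted fold 2.34, log2 change 1.23 ± 0.24 SE, edgeR adjusted p = 0.0208). The spread between replicates was wider at 20 h than at 23.5 h, but the groups lay far apart. ZPR1, a little zipper protein that binds HD-ZIP III factors in setting leaf polarity, was at 16.9, 18.96 and 11.96 CPM at 20 h and at 28.1, 33.4 and 30.4 CPM at 23.5 h (log2 change 0.95 ± 0.21 SE, edgeR adjusted p = 0.0396). UNE15, annotated as a late embryogenesis abundant protein, rose from 10.8, 7.61 and 9.03 CPM to 28.2, 23.2 and 20.6 CPM (log2 change 1.40 ± 0.27 SE, edgeR adjusted p = 0.0208). GER2, a germin-like protein, was low throughout, at 0.48 to 1.07 CPM at 20 h and 1.52 to 2.11 CPM at 23.5 h (log2 change 1.196).

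Among the other non-coding genes, AT1G34418 rose from 10.8, 13.5 and 10.2 CPM to 23.4, 24.1 and 26.3 CPM (log2 change 1.1 ± 0.22 SE, edgeR adjusted p = 0.0224). AT2G26355, at 29.3, 20.5 and 20.7 CPM and then 51.2, 36.8 and 38.1 CPM (log2 change 0.84), overlaps AT2G26360 on the opposite strand, which had a log2 change of 0.04. The strand setting of the authors' counting was not stated, so its reads and those of the overlapping gene cannot be told apart. The same holds for the 14 of 35 nuclear called genes that overlap an annotated gene on the opposite strand, XCP1, LAC11, LAC17 and TAS1C among them. AT3G07215 and AT4G02005, annotated as non-coding too, had log2 changes of 0.99 and 1.82. The largest fitted rise, of 2.05 for AT3G61898, came from 0.13 to 0.64 CPM at 20 h and 1.63 to 1.90 CPM at 23.5 h, near the limit of the filter, as did those of AT4G19430 (1.86) and AT4G05631 (1.54). AT3G47510 and AT5G35927 had log2 changes of 0.76 and 0.79.

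**Figure D3:**
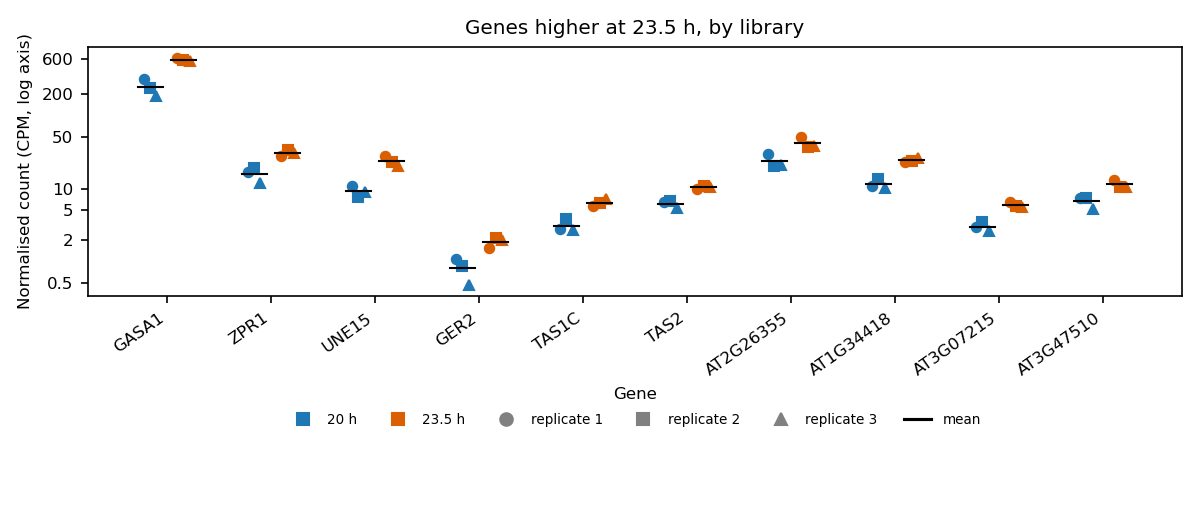
CPM (log axis) of 10 genes called higher at 23.5 h, by gene; colours, marker shapes and mean bars are as in the plot of the genes that fell. All 3 libraries of 23.5 h lie above those of 20 h in each gene, as for GASA1 at 556 to 608 CPM against 185 to 315 CPM.

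The time course is given for GASA1, UNE15 and TAS1C as examples. GASA1 had means of 246 CPM at 20 h, 135 CPM at 20.5 h, 504 CPM at 21 h, 459.5 CPM by 22 h and 591 CPM by 23 h, with its highest mean at 24 h (1037 CPM). UNE15 was at 9.14 CPM at 20 h, 33.6 CPM at 22 h and 24.0 CPM at 23.5 h, and TAS1C at 3.101, 6.46 and 6.42 CPM at these times. Set against the same 20 h libraries, the log2 changes at 22 h were 0.89 ± 0.24 (SE) for GASA1, 1.88 ± 0.28 for UNE15 and 1.07 ± 0.22 for TAS1C. From 23.5 h to 27 h they changed by 0.18, 0.30 and 0.20 (log2), and none was called.

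The circadian clock is a loop in which the morning factors LHY and CCA1 and the later PRR proteins, TOC1, GI and the evening complex repress each other over the day. None of the 28 tested clock genes was called between 20 h and 23.5 h, against 0.205% of all genes. With non-overlapping libraries, 2 were higher (7.14%) and 2 lower (7.14%), near the background of 7.68% and 7.82%. The median log2 change was 0.17, and 28.6% of the changes were below 0, against 49.8% of all genes. The median was 0.08 without 20 h replicate 3, 0.10 without 23.5 h replicate 2, 0.26 without 20 h replicate 1 or 23.5 h replicate 3, and 0.32 with library totals as the scale.

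LHY was at 218, 185 and 148 CPM at 20 h and at 236, 237 and 179 CPM at 23.5 h, with overlapping groups (log2 change 0.25, 95% interval -0.89 to 1.39). Between them its mean went to 33.2 CPM at 21 h and back to 239 CPM at 22 h. CCA1 was at 136, 109 and 72.5 CPM and then at 175, 165 and 118 CPM (log2 change 0.54, interval -0.36 to 1.43). The intervals of both genes reach past a doubling, so the test leaves room for changes of that size. PRR9 and PRR7, the early PRR genes, had log2 changes of 0.16 and -0.10. PRR7 was at 85.2, 77.9 and 83.5 CPM at 20 h and at 79.9, 80.1 and 70.0 CPM at 23.5 h, while its mean ran from 44.6 CPM at 19.5 h to 155 CPM at 24.5 h. PRR5 was near its lowest level in both groups, at 1.42 to 2.41 and 1.52 to 1.57 CPM, against a highest mean of 18.19 CPM at 24.5 h. GI, the late-day regulator, was at 29.4, 41.0 and 39.7 CPM and at 27.2, 32.7 and 36.5 CPM, and reached a mean of 123 CPM at 21 h.

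GRP7, an RNA-binding protein driven by the clock, showed the widest swing. It was at 100.2, 115 and 115 CPM at 20 h and at 85.8, 96.2 and 99.6 CPM at 23.5 h. The groups did not overlap, but the difference was small (log2 change -0.23, interval -1.60 to 1.14) beside a mean of 1082 CPM at 21 h and of 1161 CPM at 24 h. ELF3, of the evening complex, had the lowest unadjusted p of the list (0.019, edgeR adjusted p = 0.389), from 15.9, 12.03 and 14.3 CPM to 22.3, 19.2 and 15.5 CPM. PRR3 was at 1.29 to 1.99 CPM and then at 2.27 to 3.59 CPM (log2 change 0.78, interval -0.04 to 1.60). TOC1 was at 15.3 to 18.6 CPM and at 17.5 to 20.8 CPM (log2 change 0.17). The other clock genes had log2 changes from -0.29 (ELF4) to 0.87 (RVE2). The highest mean of the time course fell at 23.5 h for LCL1 and AT5G64170, the lowest at 20 h for TOC1, ELF3, PRR3 and JMJD5, and both extremes fell at other times for the remaining clock genes.

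**Figure D4:**
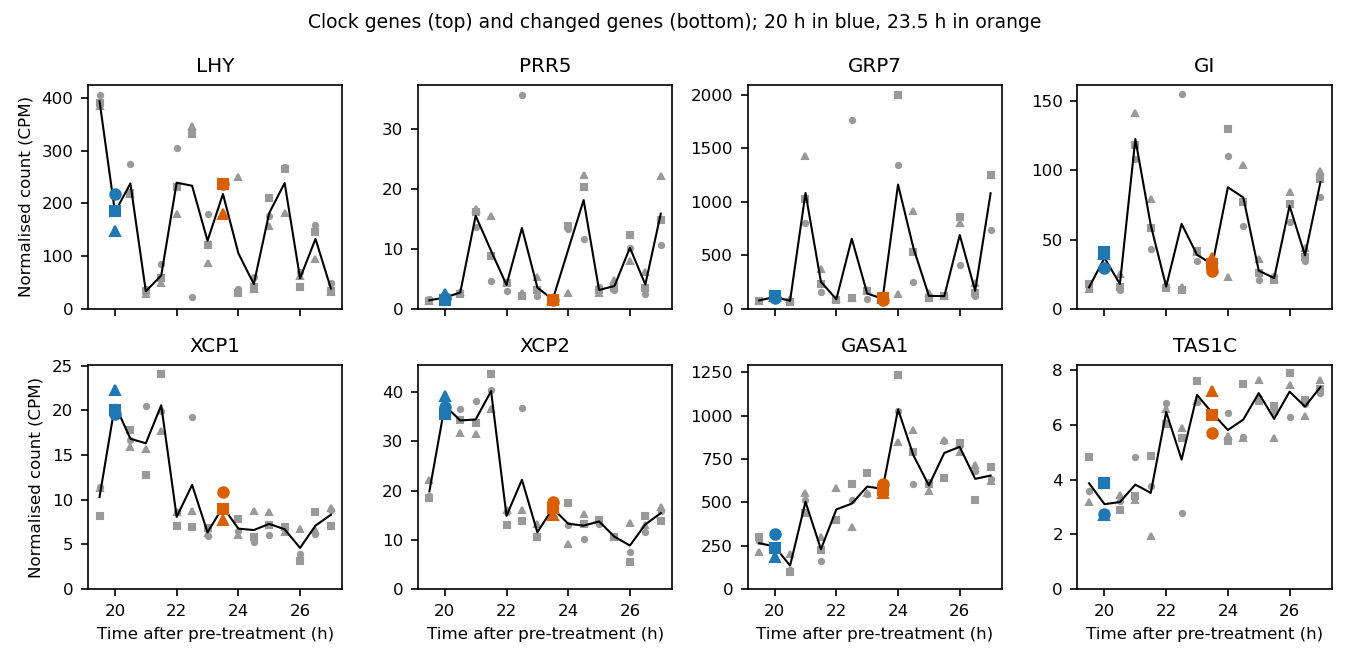
CPM against time after the pre-treatment (h) for 4 clock genes (top) and 4 genes called between 20 h and 23.5 h (bottom); points are single libraries, the line joins the means of 3 replicates, and 20 h is blue and 23.5 h orange. LHY, PRR5, GRP7 and GI moved widely between and beyond the pair (GRP7 to 1082 CPM at 21 h), while XCP1 and XCP2 dropped after 21.5 h and GASA1 and TAS1C rose.

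The evening element AAATATCT, bound by LHY and CCA1, was present on either strand of the 250 bases before the start in 8 of the 28 clock genes (28.6%), against 5.02% of all tested genes. It was also before 2 of 20 genes called lower (TED6 and AT1G42960) and 2 of 15 called higher. None of the 13 tested xylem and cambium markers, a list without TED6, had the element (0%), nor did any of the 31 light-harvesting and photosystem genes (0%). The windows of GRP7, PRR5 and TED6 are shown with the element in capitals (as AGATATTT where it is on the opposite strand). They set 2 clock genes that were not called beside a secondary wall gene that fell, picked because it has a match.
GRP7, chr2:9266568-9266599: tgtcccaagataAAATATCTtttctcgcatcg
PRR5, chr5:8358714-8358745: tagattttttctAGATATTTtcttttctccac
TED6, chr1:16575690-16575721: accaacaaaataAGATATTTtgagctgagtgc
The G-box CACGTG was before 9 of 28 clock genes (32.1%, 7.42% of all) and before 0 of 20 genes called lower and 1 of 15 called higher.

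The cold-response genes were of interest because the leaves came from 16 °C. Of 17 tested members, 0 were called (0.205% of all genes), and 12 of 17 changes were below 0, with a median log2 change of -0.17. The median was -0.10 without 20 h replicate 3 and -0.03 with library totals as the scale. CBF1 itself had a log2 change of -0.62 (interval -2.82 to 1.57). The factors CBF1, CBF2 and CBF3 (DREB1A), which switch on cold genes, were low in both groups, at 0.11 to 0.34, 0.67 to 1.199 and 1.19 to 1.95 CPM over the 6 libraries. Their target COR15A was at 4.66, 4.01 and 4.29 CPM and then at 3.22, 3.27 and 3.0 CPM (log2 change -0.45, edgeR adjusted p = 0.899), with non-overlapping groups but a wide interval. KIN2 and LTI78 (RD29A) had log2 changes of -0.38 and -0.45 with overlapping libraries.

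The genes of light harvesting and the photosystems shifted in one direction without a call. All 31 tested members had a negative log2 change, against 49.8% of all tested genes. Of them 0 were called (0.205% of all), and 17 were lower at an unadjusted p under 0.05 (4.91% of all genes). In 22 (71%) the 3 libraries of 23.5 h lay below those of 20 h, against 7.82% of all genes. The median log2 change was -0.41. It lay between -0.50 and -0.33 with any one of the 6 libraries left out, and at -0.26 with library totals as the scale, where the median of all genes moved to 0.15. These are among the most abundant transcripts of the leaf, and their summed level was 178929 to 233768 CPM at 20 h and 136396 to 179545 CPM at 23.5 h, so the sums overlapped slightly.

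PSAK, a subunit of photosystem I, had the lowest unadjusted p of the list (0.0045, edgeR adjusted p = 0.244), at 2055, 1526 and 1638 CPM and then 1277, 1017 and 1051 CPM. LHCB1.2 (CAB3), an antenna protein of photosystem II, was at 11551, 8997 and 12028 CPM at 20 h and at 7688, 5580 and 7866 CPM at 23.5 h (log2 change -0.62 ± 0.27 SE, edgeR adjusted p = 0.428). It was called only in the fit to the 6 libraries alone. LHCB1.1 (CAB2), LHCB1.2 and LHCB1.3 are near-identical copies, and reads could be split between them. LHCB2.3 had the largest change of the list (-0.97), with overlapping libraries. Related lists lay on the same side with 0 called (0.205% of all genes). Chlorophyll synthesis had 20 of 20 changes below 0 (median -0.29), and the Calvin cycle and photorespiration 25 of 26 (median -0.21). Starch metabolism had 29 of 34 (median -0.22). With library totals as the scale these became 17 of 20 (median -0.14), 19 of 26 (median -0.06) and 21 of 34 (median -0.07). A one-sided shift was not particular to these lists. The nitrogen list had 26 of 27 changes below 0 (15 of 27 with library totals) and the aquaporins 15 of 17 (11 of 17 with library totals). Auxin signalling leaned the other way, with 9 of 41 below 0. The median of chlorophyll synthesis was -0.19 without 20 h replicate 3, that of starch -0.15 without the same library, and that of the Calvin cycle -0.10 without 20 h replicate 1 and -0.14 without 23.5 h replicate 2.

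**Figure D5:**
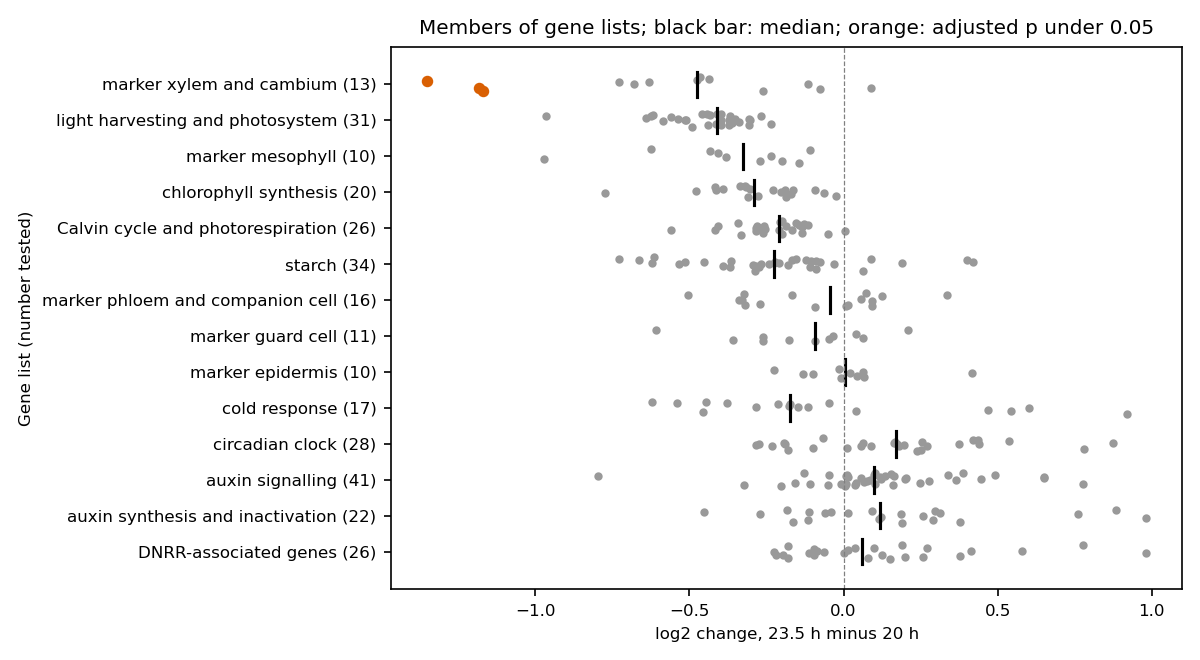
Log2 change from 20 h to 23.5 h (x axis) of each tested member of 14 gene lists (y axis, number tested in parentheses); grey points are members, orange points those with an adjusted p under 0.05, and black bars the list medians. All 31 light-harvesting and photosystem genes lie below 0 with a median of -0.41 and none called, while the xylem and cambium list has 3 called members and a median of -0.48.

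Markers of other leaf cells gave the following values beside these shifts. The summed level of the 10 mesophyll markers, which share 3 light-harvesting genes with that list, was 70510 to 91787 CPM at 20 h and 56111 to 74934 CPM at 23.5 h. Of these 10 markers 0 were called (0.205% of all genes), with a median log2 change of -0.33. CA1, a carbonic anhydrase, went from 429, 344 and 397 CPM to 240, 187 and 172 CPM without a call (edgeR adjusted p = 0.556). The 16 phloem and companion cell markers summed to 2149 to 2328 CPM and 1910 to 2072 CPM (median -0.04), the 11 tested of 14 guard cell markers to 1064 to 1239 CPM and 682 to 888 CPM (median -0.09), and the 10 tested of 13 epidermis markers to 2316 to 2569 CPM and 2197 to 2441 CPM (median 0.01). In the guard cell list the sum was set largely by TGG1, a myrosinase, at 1121, 989 and 962 CPM and then 648, 777 and 587 CPM (edgeR adjusted p = 0.179). FAMA (FMA) and HT1, which define guard cells, had log2 changes of 0.21 and -0.36. Of 14 root and meristem markers, 2 reached the filter and 0 were called (0.205% of all genes). With library totals as the scale, where the median of all genes is 0.15, the phloem and guard cell medians were 0.11 and 0.06. The part of cell makeup in the xylem and light-harvesting values was not tested.

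None of the 9 genes of the list of the study's promoter reporters and EAR1 was called (0.205% of all genes). Their log2 changes ran from -0.98 for KMD1 to 0.54 for CCA1, described above, and CAB2 was at 9646, 6509 and 9637 CPM and then at 6966, 4812 and 6336 CPM (log2 change -0.51, interval -1.20 to 0.18). ORE1 (NAC6), the leaf ageing factor whose promoter was used to follow the rhythm, was at 31.3, 20.6 and 35.6 CPM at 20 h and at 39.4, 24.2 and 26.1 CPM at 23.5 h (log2 change 0.05, interval -0.70 to 0.80), against a highest mean of 96.3 CPM at 26 h. EAR1 (AT5G22090), a negative regulator of abscisic acid signalling, was at 439, 360 and 369 CPM and then at 432, 377 and 436 CPM (log2 change 0.09, interval -0.24 to 0.42). PIN3, an auxin exporter, had a log2 change of 0.00 and ARF7 (NPH4), an auxin response factor, one of 0.04. AFB2, an auxin receptor, was higher in each library of 23.5 h, at 77.7, 81.2 and 60.7 CPM and then 92.2, 98.2 and 92.1 CPM, but was not called (log2 change 0.36 ± 0.15 SE, edgeR adjusted p = 0.384). KMD1 (AT1G80440), an F-box protein of cytokinin signalling, varied more within 20 h (41.3, 19.3 and 141 CPM) than between the groups (37.0, 14.4 and 45.4 CPM at 23.5 h), and its log2 change lay between -1.40 and 0.01 with single libraries left out, the latter without 20 h replicate 3.

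Of the 40 genes that the study linked to DNRR from earlier work, 26 were tested and 0 were called (0.205% of all genes). Their median log2 change was 0.06. YUC8, a flavin monooxygenase of auxin synthesis, was at 1.86, 2.14 and 2.13 CPM at 20 h and at 3.83, 3.78 and 4.51 CPM at 23.5 h (log2 change 0.98 ± 0.34 SE, edgeR adjusted p = 0.278). IAA14, a repressor of auxin response in root initiation, had a log2 change of 0.78 with overlapping libraries, and SCR, a root and vascular GRAS factor, one of -0.23. Of 41 tested auxin signalling genes 0 were called (0.205% of all genes). With non-overlapping libraries 7 were higher and 3 lower (17.1% and 7.32%, against 7.68% and 7.82% of all genes), among them IAA18 (log2 change 0.39) and IAA19 (0.65). GH3.17 (AT1G28130), which conjugates auxin to amino acids, was at 1.55, 2.17 and 1.77 CPM and then 2.88, 3.13 and 3.29 CPM (log2 change 0.76 ± 0.20 SE) and was not called (edgeR adjusted p = 0.109), though it passed in DESeq2 and, with library totals as the scale, in edgeR.

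The other lists had no called member (0.205% of all genes were called). Their medians lay between -0.33 (flavonoid synthesis, 19 tested) and 0.12 (auxin synthesis and inactivation, 22 tested), outside the plastid and mitochondrial genomes. That of the flavonoid list was -0.59 without 20 h replicate 1 and -0.21 without 20 h replicate 2 or 3, and that of the auxin synthesis list 0.20 without 23.5 h replicate 2. In the jasmonate list PDF1.2, a defensin, had a log2 change of -2.36 ± 1.01 (SE), at 4.97, 5.88 and 8.87 CPM and then 0.72, 1.24 and 1.92 CPM, and was not called (edgeR adjusted p = 0.428). Its mean reached 113 CPM at 26 h. In the wound and touch list XTH31, a wall-modifying enzyme, was at 25.6, 47.6 and 77.5 CPM and then at 9.95, 21.9 and 25.2 CPM (log2 change -1.38, edgeR adjusted p = 0.523). In the sulfur list OASB, a plastid cysteine synthase, was at 182, 161 and 167 CPM and then at 143, 128 and 129 CPM (log2 change -0.35 ± 0.08 SE) just outside the threshold (edgeR adjusted p = 0.0668). Of 22 mitochondrial genes 0 were called (0.205% of all genes), with a median log2 change of -0.35, which was -0.10 without 20 h replicate 3, -0.19 without 23.5 h replicate 2 and -0.53 without 23.5 h replicate 3.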

How the data were processed

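Per the authors' methods, FastQC served for quality control and trimming, STAR for alignment (TAIR10) and HTSeq for counting. The deposited values are whole-number counts of reads for each of 34262 genes, without normalization. For versions and strand setting, nothing was given in the sources used here. CPM values were computed from the counts. Tests covered the 17568 genes that averaged 1 CPM or more across the 48 libraries and were run with edgeR 4.0.16 (R 4.3.3; quasi-likelihood F test, TMM, time point and replicate number as factors, contrast 23.5 h minus 20 h, Benjamini-Hochberg threshold 0.05). SE is the log2 change over the square root of F, and intervals are 95%. The study's methods use the replicate factor. Same-numbered libraries of 20 h and 23.5 h deviated together from their group means (r = 0.61, 0.36 and 0.36), so the numbers were taken as pairing the samples. Differently numbered pairs ran from -0.58 to 0.27, the latter for 20 h replicate 2 with 23.5 h replicate 3. Deviations from a mean sum to 0, so these values are not independent. No 2 replicates held identical counts, and their chi-square per degree of freedom was at least 24.5.

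Named genes are the clock genes, CBF1 to CBF3, the study's reporter genes and EAR1, the 12 largest rises and falls past the threshold with at least 10 CPM and non-overlapping libraries in every pair (5 and 14 were eligible), and up to 4 called members per list. The other called genes, and members named for an unadjusted p, a low adjusted p or a defining role, were added with their values in view. The comparison, its lists and its tests were chosen with earlier results of these data known. Of the list symbols, 8 matched no gene. Names, sequences and coordinates come from the RefSeq annotation of TAIR10.1, while the authors mapped to TAIR10, and 17463 tested genes had a 250-base sequence before their start. DESeq2 1.42.0, limma-voom (limma 3.58.1), other scalings, filters, samples and factors were tried as alternatives. Scripts were tested on simulated data.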

Additional observations from a re-analysis of the deposited data

How the results depend on the processing

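The 36 called genes kept their direction in each alternative in which they were tested. Their libraries did not overlap, which leaves this direction little room to turn. The count of calls was 42 with DESeq2 size factors, 43 with limma-voom, 35 with robust moderation (chosen after seeing the data), 32 without a filter and 20 with a filter at 5 CPM (14046 genes tested). It was 122 with DESeq2 (57 higher, 65 lower) and 143 without 22.5 h replicate 1 and 24 h replicate 3 (62 higher, 81 lower). With library totals as the scale it was 142, of which 125 were higher and 17 lower, against 15 and 21, since the median of all genes moved from 0.00 to 0.15. Without the replicate block 50 genes passed. The fit to the 6 libraries with the block, which has 2 residual degrees of freedom, gave 13, and the 6 libraries without it gave 1. Leaving out replicate 1, 2 or 3 at every time point gave 0 calls (1013 to 1173 genes at an unadjusted p of 0.05), and leaving out 1 of the 6 libraries gave 0 to 13. XCP1, XCP2 and LAC17 had adjusted p of 0.0687, 0.0687 and 0.0871 at the lowest among these leave-one-out fits, with log2 changes that stayed between -1.495 and -1.01. The causes of these moves were not tested beyond the fewer genes or samples that an alternative has by construction.

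Among the lists, the 6-library fit with the block called 1 light-harvesting gene (LHCB1.2, also 1 mesophyll marker), 1 jasmonate gene (PDF1.2), 1 wound gene (XTH31), 1 xylem marker (XCP2 in place of 3) and 1 mitochondrial gene (ATMG01380), all lower. Without 22.5 h replicate 1 and 24 h replicate 3, 1 starch gene (AMY3), 1 sulfur gene (OASB) and 1 mesophyll marker (CA1) passed, all lower, with 4 plastid and 2 mitochondrial genes, of which 2 and 1 were higher. DESeq2 called 1 auxin synthesis and inactivation gene (GH3.17, higher), 1 sulfur gene (OASB), 5 plastid genes and 1 mitochondrial gene, and the fit without the replicate block 1 mitochondrial gene. With library totals as the scale, 1 auxin synthesis and inactivation gene (GH3.17), 1 auxin signalling gene (IAA18), 1 autophagy gene, 6 plastid genes and 1 mitochondrial gene passed. For other pairs of times the fit without 22.5 h replicate 1 and 24 h replicate 3 gave 15 calls for 25.5 against 22 h and 55 for 26.5 against 23 h, and against 20 h it gave 1197, 667, 1545, 1272, 1931 and 1141 at the half-hourly times from 19.5 to 22.5 h other than 20 h, 4099 for 24 h and 2320 for 25.5 h. Depth limits the low genes most: at 1 CPM these 6 libraries hold 22.5 to 37 reads of a gene, and CBF1 rests on 4 to 11 reads and AT3G61898 on 3 to 66 reads per library.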
